A study of Mus musculus with 8 samples.

Results

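Nuclear pore and nuclear transport genes were followed in polysomal mRNA, that is, mRNA bound by several ribosomes and taken to be in translation, from mouse eggs and one-cell embryos. The genes were chosen by name, with earlier results of these data known. They were the nucleoporins (Nup), the importins and exportins (Kpna, Kpnb, Ipo, Tnpo, Xpo), and Ran, Rangap1, Ranbp1, Ranbp2, Rcc1, Cse1l, Aaas, Ndc1 and Pom121. Of 45037 probe sets on the array, 129 carried such a name as their single gene symbol, for 50 genes. Of these probe sets 92, for 48 genes, were bright enough to be tested, with a signal over the median of its array on 4 or more of the 8 arrays. The 37 others included all 6 probe sets of the Y complex protein Nup133 and the 1 of Nup210l, a paralogue of Nup210, and none of them exceeded a signal of 176 on any array. Tpr was not analysed here.

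The MII oocyte group held 4 arrays of unfertilized eggs arrested at metaphase II. The one-cell embryo group held 4 arrays of embryos before the first cleavage kept in α-amanitin, a toxin that stops RNA polymerase II and so new mRNA synthesis. Each array measured polysomal mRNA of a batch of 160 to 500 eggs or embryos after 2 rounds of amplification, and the labels call the replicates independent. Strain, age and collection time are not stated in the labels. Stage and α-amanitin changed together and cannot be told apart, and without total mRNA the amount of an mRNA and its loading onto ribosomes cannot be told apart either.

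Nuclear pores are channels through the nuclear envelope, assembled from repeated copies of many kinds of nucleoporin. A Y-shaped scaffold complex and an inner ring hold the pore, membrane proteins anchor it, and nucleoporins rich in phenylalanine-glycine repeats fill the channel and its cytoplasmic and nuclear faces. Importins and exportins carry cargo through the channel, and the small GTPase Ran gives the direction: Rcc1 loads it with GTP on chromatin, and Rangap1 with Ranbp1 and Ranbp2 triggers GTP hydrolysis in the cytoplasm. A metaphase II egg has no nuclear envelope, and after fertilization new envelopes with pores form around both pronuclei. In meiosis, Ran and the importins also act in spindle assembly.

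The values of each array had been scaled to a common mean before deposit and are signals in arbitrary units. Log2 signals correlated at 0.933 to 0.952 among MII arrays and at 0.810 to 0.945 among one-cell arrays. One-cell array 1 was the outlying one: its median was 72, where the other 7 arrays had 27 to 38. Its spiked hybridization controls had a geometric mean of 14879 against 857 to 3718. All 10 oocyte markers lay above the median on at least 4 arrays, with summed signals of 70294 to 93464 on MII arrays and 43673 to 68204 on one-cell arrays. The 13 cumulus and granulosa markers on the table summed to 432.7 to 636.3 and 347.8 to 1306, where Foxl2 was the brightest on MII arrays (88.6 to 209.2, and 147.3 to 296.7 on one-cell arrays). Ptgs2, Fshr and Hsd3b1 reached 239.2, 202.3 and 135.3 on a one-cell array, and Amh 37.3. The 12 sperm markers summed to 2794 to 3638 and 1495 to 2829, of which Odf2, also expressed in somatic cells, made 2410 to 3310 and 532.1 to 2340. Prm2 had 15.7 to 46.1 and 80.3 to 245.9, with groups apart, and Gapdhs, Acr and Prm1 reached 250.4, 142.1 and 90.9 on a one-cell array. The part of other cells in the results was not tested. Of all 23336 probe sets tested, 19.3% were higher and 12.8% lower in one-cell embryos. The median change of all of them was 0.17 on the log2 scale as deposited, -0.12 after quantile normalization and -0.15 with each array centred on its median.

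More nucleoporin genes fell than rose on polysomes, and transport receptor genes rose and fell in shares near those of all genes. At an adjusted p under 0.05 in limma, by the brightest probe set of each gene, 9 of 48 genes were higher in one-cell embryos (18.8%, against 20.6% of all 12359 genes). At the same threshold 14 were lower (29.2%, against 14.8%). Falls were commoner among bright probe sets: of all those above the 75th percentile on at least 4 arrays, 27.8% were higher and 25.3% lower. The shares were not compared at equal brightness. Among the 21 nucleoporin genes 3 rose (14.3%) and 9 fell (42.9%). Among the 23 importin and exportin genes 5 rose (21.7%) and 4 fell (17.4%). The median log2 change was -0.88 for the nucleoporins and 0.44 for the receptors, against 0.17 for all genes. Over probe sets, 45 of 92 passed (32.1% of all 23336 did) and 48 of 92 had groups that did not overlap (32.6% of all), and of genes 24 of 48 (35.7% of all genes). The nucleoporins had 4 rises and 17 falls among 41 probe sets (9.76% and 41.5%). The receptors had 18 rises and 4 falls among 42 (42.9% and 9.52%). Of all probe sets 19.3% rose and 12.8% fell. These counts hold 2 receptor probe sets, of Kpnb1 and Xpo5, that lay under the median on every MII array and passed the filter only through the one-cell arrays, where they were high. Without them 43 of 90 probe sets passed, and the receptors had 16 rises and 4 falls among 40. These counts still hold the brightest probe set of Ipo4, which passed the filter mainly through the one-cell arrays. Ipo4 is also 1 of the 5 receptor genes that rose. The grouping into pore proteins and receptors was made after values had been seen, and probe sets of 1 gene are not independent. In such pooled samples, fewer cells of a type and less RNA per cell cannot be told apart.

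**Figure D1:**
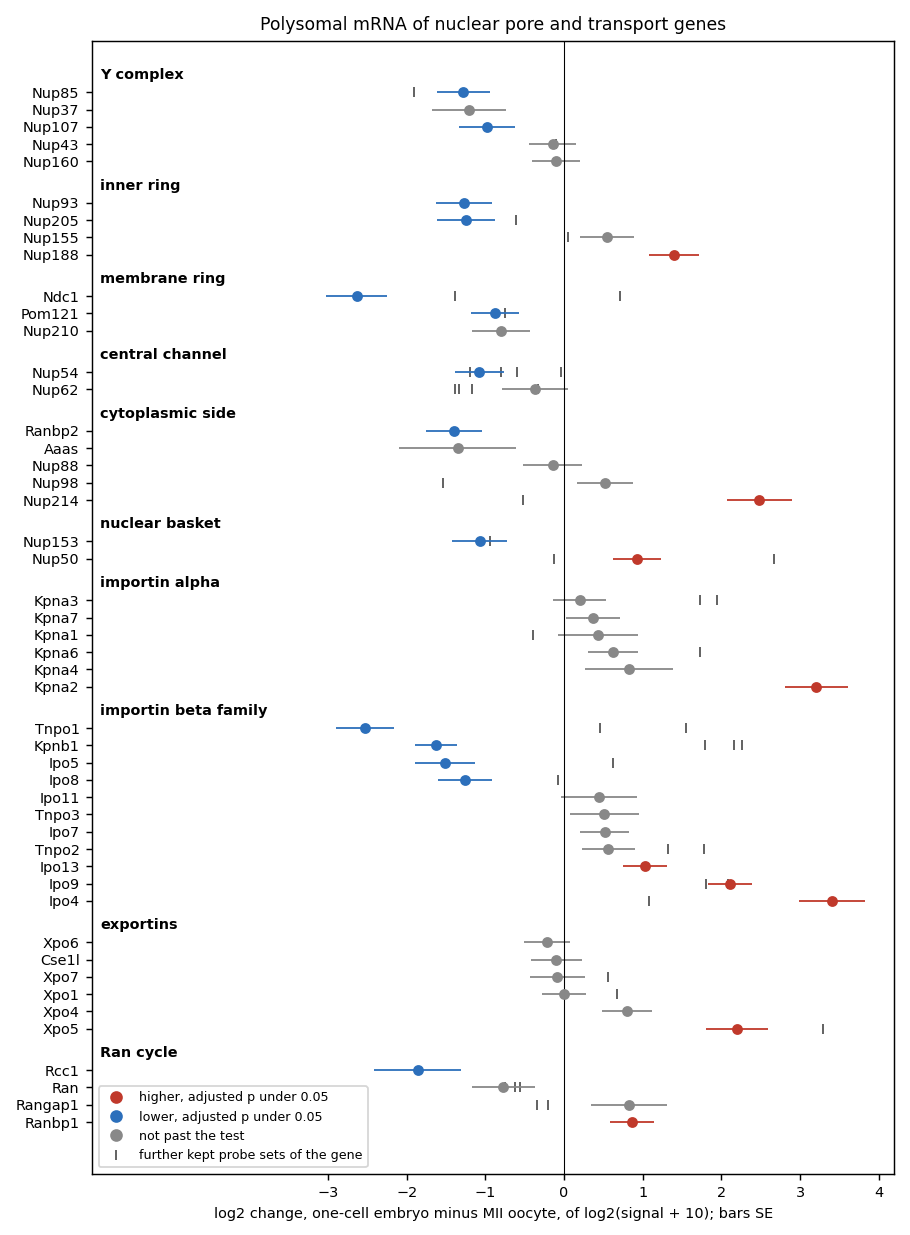
Log2 change (one-cell embryo minus MII oocyte) of the 48 genes by place in the pore or role in transport. Points are the brightest probe set of each gene with its SE (4 arrays a group), coloured by the limma test, and ticks are the gene's further tested probe sets. Of 21 nucleoporin genes in the upper 6 blocks 9 fell, with Nup214, Nup188 and Nup50 as the 3 rises.

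One-cell array 1 was the lowest of the 4 one-cell arrays for 14 of the 21 nucleoporin genes (66.7%), against 34.7% of all genes. Without that array the counts were the same, 3 rises and 9 falls for nucleoporins and 5 and 4 for receptors, and the medians were -0.62 and 0.39. Each one-cell array taken alone had a median below the MII mean for nucleoporins (-0.98, -0.45, -0.55 and -0.75 on arrays 1 to 4) and above it for receptors (0.51, 0.29, 0.36 and 0.49). After adjustment for the hybridization controls, 3 nucleoporin genes rose and 3 fell. With centred arrays 1 rose and 5 fell. Averaged over the probe sets of each gene, 10 receptor genes rose and 1 fell. The averages of Kpnb1 and Xpo5 include the 2 probe sets that passed the filter only through the one-cell arrays. No average was taken without them. Receptor falls numbered 2 after the adjustment for the hybridization controls, where Ipo5 and Ipo8 missed the threshold. They also numbered 2 without MII array 1. There other probe sets of Kpnb1 and Tnpo1 were the brightest, and the probe sets that fell in the full fit kept their calls. The nucleoporin median lay below 0 and the receptor median above 0 in the main fit and in all 21 alternatives. Dropping the variance trend, adding the replicate block or using a threshold of 0.01 leaves every log2 change as it was. Those alternatives therefore repeat the main medians and are no check of them.

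**Figure D2:**
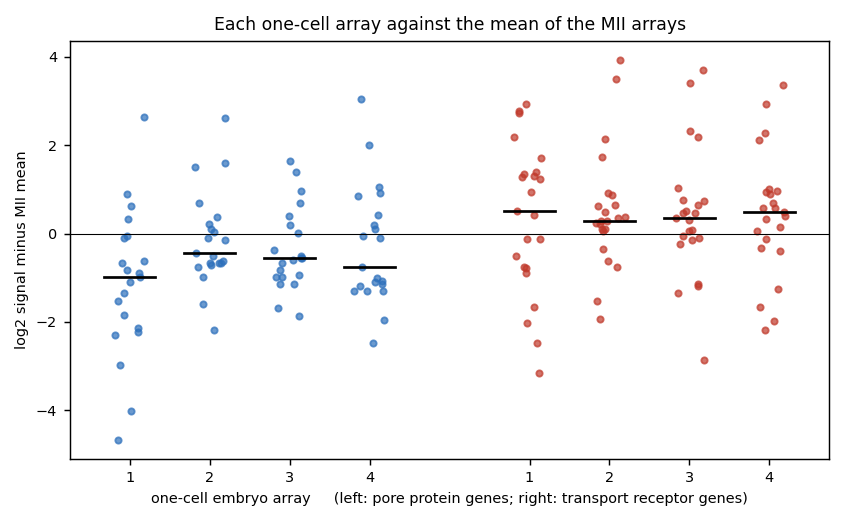
Log2 signal of each gene on each one-cell array minus its mean over the 4 MII arrays, for 21 nucleoporin genes (left) and 23 transport receptor genes (right). Bars are medians: they lie below 0 on all 4 arrays for nucleoporins and above 0 on all 4 for receptors, and array 1 holds the lowest points.

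The Y complex forms the outer scaffold of the pore, and 2 of its 5 tested genes fell while none rose. Nup85 had signals of 3194, 4124, 2673 and 3123 on MII arrays 1 to 4 and of 733, 2029, 1461 and 1427 on one-cell arrays 1 to 4. Every one-cell array lay below every MII array, a log2 change of -1.28 ± 0.34 (SE, adjusted p = 0.00742), and its further probe set also fell (-1.90 ± 0.42, and -1.04 ± 0.36, adjusted p = 0.0478 after adjustment for the hybridization controls). For Nup107 the MII signals were 3828, 1478, 3312 and 2023 and the one-cell signals 856, 1504, 1696 and 1125. MII array 2 lay within the one-cell range, and the change was -0.98 ± 0.35 (adjusted p = 0.0425). Nup37, at 6168, 7596, 5637 and 7625 in MII and 843, 4902, 4199 and 3989 in one-cell arrays, had groups that did not overlap, but array 1 stood far below the other one-cell arrays and the change missed the threshold (-1.21 ± 0.47, adjusted p = 0.0607). Nup160 (-0.11 ± 0.31) and Nup43 (-0.15 ± 0.30, and -0.11 ± 0.26 for its other probe set) did not pass. Nup107 lost its call without any 1 of MII arrays 1, 3 or 4 or one-cell arrays 1 or 4 (log2 changes from -1.08 to -0.77, adjusted p from 0.053 to 0.142), and Nup37 gained one without one-cell array 2 (log2 change -1.46, adjusted p = 0.0334) and with the replicate number as a block (-1.21 ± 0.41, adjusted p = 0.0325). Without one-cell array 1 the change of Nup37 was -0.62 ± 0.24, adjusted p = 0.0587, and after adjustment for the hybridization controls -0.33 ± 0.42, adjusted p = 0.615. After adjustment for the hybridization controls the changes of Nup85 (-0.90 ± 0.35, adjusted p = 0.0753) and Nup107 (-0.50 ± 0.36, adjusted p = 0.347) did not pass. Nup107 also missed it after quantile normalization (-0.63 ± 0.31, adjusted p = 0.149) and centring (-1.30 ± 0.53, adjusted p = 0.0932).

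The inner ring, which lines the wall of the channel, held changes in both directions. Nup93, a core inner ring protein, had 3733, 2624, 2918 and 1893 on MII and 574, 1605, 1529.9 and 1091 on one-cell arrays and fell (-1.28 ± 0.36, adjusted p = 0.011), with groups apart. Nup205, a large scaffold protein that binds Nup93, had 644, 923, 584 and 367 against 113, 375, 306 and 280.3. Its groups overlapped slightly, and it fell (-1.24 ± 0.37, adjusted p = 0.0158). Its paralogue Nup188, which also binds Nup93, went the other way, from 142, 208, 138 and 185 on MII arrays to 261, 519.6, 449.6 and 699 on one-cell arrays. All 4 one-cell arrays lay above the MII arrays (1.40 ± 0.32, adjusted p = 0.00273). Nup155 did not pass (0.54 ± 0.34). Nup205 lost its call without MII array 2 (log2 change -1.04, adjusted p = 0.054), and its further probe set did not pass (-0.61 ± 0.40, adjusted p = 0.279). After centring none of the 3 passed (-1.59 ± 0.55, adjusted p = 0.0521 for Nup93, -1.56 ± 0.54, adjusted p = 0.0503 for Nup205 and 1.09 ± 0.45, adjusted p = 0.0949 for Nup188). Both falls were smaller and not called after adjustment for the hybridization controls (-0.67 ± 0.33, adjusted p = 0.158 and -0.70 ± 0.38, adjusted p = 0.205).

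Of the 3 membrane proteins of the pore, 2 fell, and the fitted fall of Ndc1 was the largest of the 48 genes by brightest probe set, with that of Tnpo1 within its SE. Ndc1, which spans the membrane and is needed to place new pores, had 732, 608, 717 and 579.6 on MII arrays and 31, 137, 173 and 110.1 on one-cell arrays. The highest one-cell array held less than the lowest MII array by a wide margin, a 6.21-fold fall (-2.64 ± 0.39, adjusted p = 7.51e-05). A further probe set fell from 579.9, 465, 609 and 538 to 251, 191, 214 and 162 (-1.39 ± 0.26, adjusted p = 0.000732), and a dim one did not pass (0.71 ± 0.41). Pom121, an anchor of the pore that acts early in pore assembly, had 3419.9, 4053, 3051 and 5072 against 2050, 2669, 1930 and 1775 (-0.88 ± 0.31, adjusted p = 0.037), and its other probe set also fell (-0.75 ± 0.27, adjusted p = 0.0405). The groups of both were apart. Nup210 had 70.5, 111, 161 and 118 on MII and 103, 66.3, 44.9 and 39 on one-cell arrays, with groups that overlapped (-0.80 ± 0.36, adjusted p = 0.108). Pom121 lost its call without any 1 of MII arrays 1, 2 or 4 or one-cell arrays 3 or 4 (log2 changes from -0.93 to -0.74, adjusted p from 0.0574 to 0.122), as its other probe set did without any 1 of MII arrays 1, 3 or 4 or one-cell arrays 1, 2, 3 or 4 (log2 changes from -0.81 to -0.63, adjusted p from 0.0535 to 0.126), after centring (-1.07 ± 0.40, adjusted p = 0.0689) and after adjustment for the hybridization controls (-0.59 ± 0.29, adjusted p = 0.154). Pom121 also missed the threshold after quantile normalization (-0.38 ± 0.26, adjusted p = 0.304), after centring (-1.19 ± 0.42, adjusted p = 0.0552), with the replicate number as a block (-0.88 ± 0.32, adjusted p = 0.05) and after adjustment for the hybridization controls (-0.92 ± 0.33, adjusted p = 0.0549). Nup210 passed without one-cell array 1 (log2 change -1.04, adjusted p = 0.017) and after quantile normalization (-1.20 ± 0.29, adjusted p = 0.00886) or centring (-1.12 ± 0.30, adjusted p = 0.0164).

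Nup54 and Nup62 belong to the repeat-rich complex that fills the central channel. Nup54 had 1394, 2594, 1876 and 2188 on MII and 908, 641, 1297 and 971 on one-cell arrays, and every one-cell array lay below the MII arrays (-1.08 ± 0.31, adjusted p = 0.0129). Of its 4 further probe sets 1 passed as lower (-1.19 ± 0.37), and the others did not pass (log2 changes from -0.80 to -0.04). The brightest probe sets of Nup54 and Nup62 are both of a type that can also bind other transcripts. The brightest Nup62 probe set, at 13200.1, 19502, 12715 and 20083 on MII and 10402, 18636, 8033 and 15012 on one-cell arrays, overlapped between the groups (-0.37 ± 0.42, adjusted p = 0.558). Of its 4 further probe sets 2 fell (-1.39 ± 0.47, adjusted p = 0.0336, and -1.34 ± 0.42, adjusted p = 0.0218). The first of these 2 is also of the type that can bind other transcripts. The fall of Nup54 missed the threshold after quantile normalization (-0.75 ± 0.31, adjusted p = 0.0946) and after adjustment for the hybridization controls (-0.99 ± 0.35, adjusted p = 0.052). The 3 further calls were lost without 1 array: that of Nup54 without any 1 of MII arrays 3 or 4 (log2 changes from -1.15 to -0.99, adjusted p from 0.0519 to 0.0811), and those of Nup62 without any 1 of MII arrays 1, 2 or 4 or one-cell array 3 (log2 changes from -1.41 to -1.25, adjusted p from 0.0574 to 0.0864) and without any 1 of MII array 1 or one-cell array 4 (log2 changes from -1.26 to -1.17, adjusted p from 0.0642 to 0.0719). All 3 were also lost after quantile normalization, centring and adjustment for the hybridization controls, the last giving -0.46 ± 0.32, adjusted p = 0.326 for Nup54 and -0.72 ± 0.50, adjusted p = 0.328 and -0.57 ± 0.39, adjusted p = 0.318 for Nup62. Without one-cell array 1 the first of these Nup62 probe sets was -0.84 ± 0.30, adjusted p = 0.0382.

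On the cytoplasmic face, Nup214 rose and Ranbp2 fell. Nup214, a docking site for exportin 1 and for exported mRNA, went from 1524, 3852, 1689.7 and 3195 on MII arrays to 14690.3, 14564, 7438 and 19706 on one-cell arrays. The lowest one-cell array held more than the highest MII array, and the change was 5.59-fold (2.48 ± 0.41, adjusted p = 0.000221). Its dimmer probe set did not rise (-0.52 ± 0.33, adjusted p = 0.265). Ranbp2, the giant protein of the cytoplasmic filaments that holds SUMO-linked Rangap1 at the pore, had 424, 168, 322 and 194 against 126, 125, 74 and 59.6, with no overlap (-1.40 ± 0.35, adjusted p = 0.00581). Aaas, which encodes aladin, had 564, 1324, 471 and 620.5 on MII and 17.5, 614, 463 and 662 on one-cell arrays. One-cell array 1 was almost without signal and the other one-cell arrays lay within the MII range or just below it, and the change did not pass (-1.35 ± 0.74, adjusted p = 0.19). Without that array it was -0.25 ± 0.33, adjusted p = 0.614. Nup88, the partner of Nup214, did not pass (-0.15 ± 0.38). Nup98, found on both faces of the pore, did not pass by its brightest probe set (0.52 ± 0.36) and fell by its other one (-1.54 ± 0.34, adjusted p = 0.00232). The former passed as higher after quantile normalization (0.96 ± 0.32, adjusted p = 0.037), and the latter was -0.95 ± 0.31, adjusted p = 0.0348 after adjustment for the hybridization controls.

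At the nuclear basket, the fibres on the inner face, Nup153 fell and Nup50 rose. Nup153, which recruits importins and acts in pore assembly, had 3500.4, 1989, 3442 and 2296 on MII arrays and 755, 1754, 1904 and 1094 on one-cell arrays, without overlap (-1.07 ± 0.35, adjusted p = 0.0259), and its other probe set also fell (-0.94 ± 0.32, adjusted p = 0.0313). Nup50, which helps release cargo from importin alpha, went from 912, 1088, 1030.1 and 1163 to 1305, 2989, 2057 and 1977, again without overlap (0.93 ± 0.30, adjusted p = 0.0259). A further Nup50 probe set rose more, from 105, 85, 88.4 and 88.5 to 403, 687, 818 and 724 (2.67 ± 0.29, adjusted p = 4.19e-06), and the other did not pass (-0.13 ± 0.29). Nup153 lost its call without any 1 of MII arrays 1 or 3 or one-cell array 4 (log2 changes from -0.99 to -0.95, adjusted p from 0.0782 to 0.0833), its other probe set without any 1 of MII arrays 2, 3 or 4 or one-cell array 4 (log2 changes from -0.97 to -0.86, adjusted p from 0.0599 to 0.0877), and Nup50 by its brightest probe set without any 1 of MII arrays 1 or 3 or one-cell arrays 2, 3 or 4 (log2 changes from 0.73 to 0.93, adjusted p from 0.051 to 0.0881). Both brightest probe sets missed it after centring (-1.39 ± 0.54, adjusted p = 0.0779 and 0.61 ± 0.47, adjusted p = 0.377). Nup153 missed it after quantile normalization (-0.70 ± 0.30, adjusted p = 0.0984), and both its probe sets did after adjustment for the hybridization controls (-0.48 ± 0.31, adjusted p = 0.3, and -0.54 ± 0.32, adjusted p = 0.244).

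Importin alpha proteins are adaptors that bind the classical import signal and hand the cargo to importin beta. All 6 tested genes had a change above 0 by their brightest probe set, and 1 of them, Kpna2, passed. Kpna2 went from 789, 262, 1119 and 676 on MII arrays 1 to 4 to 4206, 7224, 8239 and 4831 on the one-cell arrays. Every one-cell array held more than 3 times the signal of the highest MII array, a 9.22-fold rise (3.20 ± 0.40, adjusted p = 1.72e-05). Kpna6, whose protein is known to be needed from the mother in early mouse embryos, had 239, 538, 396 and 409.9 on MII and 933, 468, 491 and 574 on one-cell arrays by its brightest probe set, with overlap (0.63 ± 0.32, adjusted p = 0.151), and rose by its other one (1.73 ± 0.35, adjusted p = 0.00123). Kpna4 was dim in both groups, at 5.2, 64.7, 26.7 and 28.3 on MII and 152, 27.9, 34.2 and 47.6 on one-cell arrays (0.82 ± 0.56). Kpna7, the importin alpha best known from oocytes and early embryos, did not pass (0.37 ± 0.34), and its mean signal was 1406 ± 529.5 (SD, n = 4) in the MII group and 1798 ± 599.9 in the other. Kpna1, also dim, did not pass with either probe set (0.43 ± 0.51 and -0.39 ± 0.45). Kpna3 did not pass by its brightest probe set (0.20 ± 0.34) but rose by its 2 others (1.94 ± 0.28 and 1.72 ± 0.26). Averaged over their probe sets, Kpna3 (1.29 ± 0.21, adjusted p = 0.000364) and Kpna6 (1.18 ± 0.29, adjusted p = 0.00632) both passed.

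The importin beta family, the carriers themselves, moved in both directions, with 3 rises and 4 falls among 11 genes. These are 27.3% and 36.4%, against 20.6% and 14.8% of all genes. Ipo4, an importer of histones and ribosomal proteins, went from 14.6, 16.8, 2.8 and 43.6 to 189, 385, 266 and 254 (3.41 ± 0.42). MII arrays 1 to 3 lay under their array median, so the fold rests on dim MII signals. This probe set passed the filter mainly through the one-cell arrays, so its values are a description. The other Ipo4 probe set rose less, from 100, 104, 60.9 and 69.5 to 153, 186, 169.8 and 237 (1.08 ± 0.30, adjusted p = 0.0108). Ipo9, an importer of core histones, went from 140.4, 209, 175 and 253 to 642, 874, 983 and 952, a 4.31-fold rise with every one-cell array above the MII arrays (2.11 ± 0.28, adjusted p = 3.01e-05). Both further probe sets of Ipo9 rose too (1.80 ± 0.39 and 2.08 ± 0.42). The second had MII signals of 27.6, 15.1, 14.8 and 3.6, under the array median on MII arrays 2 to 4. It passed the filter mainly through the one-cell arrays, so its values are a description. Ipo13, which carries cargo in both directions, rose from 104 ± 18.8 (SD, n = 4) to 222 ± 31.4 (1.03 ± 0.28, adjusted p = 0.00907), a call lost after quantile normalization (0.59 ± 0.26, adjusted p = 0.107) and centring (0.72 ± 0.30, adjusted p = 0.0969). Quantile normalization also ended the call of the first further Ipo9 probe set (1.23 ± 0.48, adjusted p = 0.0734) and that of the dimmer Ipo4 probe set (0.55 ± 0.31, adjusted p = 0.209). Centring ended both as well (1.48 ± 0.53, adjusted p = 0.0574 and 0.77 ± 0.35, adjusted p = 0.13).

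The 4 falls were those of Tnpo1, Kpnb1, Ipo5 and Ipo8. Tnpo1, transportin 1, which imports RNA-binding proteins such as Hnrnpa1, had 3369, 1630.1, 3178 and 1304 on MII arrays and 238, 561, 291 and 475 on one-cell arrays, a 5.79-fold fall (-2.53 ± 0.37, adjusted p = 6.73e-05). Kpnb1, importin beta itself, had 1086, 922, 1140.4 and 916 on MII and 312, 343, 394 and 249 on one-cell arrays (-1.63 ± 0.26, adjusted p = 0.000181). In both genes every one-cell array lay below every MII array. Ipo5, an importer of ribosomal proteins, went from 1220.4 ± 489.7 (SD, n = 4) to 432 ± 204 (-1.52 ± 0.38, adjusted p = 0.00541). Ipo8, a close relative of Ipo7, went from 4909.8 ± 982 (SD, n = 4) to 2127 ± 793 (-1.26 ± 0.34, adjusted p = 0.0094). The changes of Ipo5 (-0.88 ± 0.37, adjusted p = 0.102) and Ipo8 (-0.84 ± 0.34, adjusted p = 0.0871) missed the threshold after adjustment for the hybridization controls. Tnpo2 by its brightest probe set (0.56 ± 0.34), Tnpo3, an importer of splicing factors (0.51 ± 0.44), Ipo7 (0.52 ± 0.31) and Ipo11 (0.44 ± 0.49) did not pass. Both further probe sets of Tnpo2 rose (1.78 ± 0.36 and 1.32 ± 0.35), the first by 1.17 ± 0.31, adjusted p = 0.0129 after that adjustment. Ipo8 was -0.81 ± 0.26, adjusted p = 0.0345 after quantile normalization.

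None of the other probe sets of these 4 carriers was called lower. Importin beta, Kpnb1, had 3 further probe sets, and 2 of them rose. The first, of a type that can also bind other transcripts, went from 104, 290.4, 173 and 205 to 924, 718, 906 and 1155 (2.27 ± 0.31, adjusted p = 4.36e-05), the second from 165, 104, 114 and 127 to 256, 502, 698 and 492 (1.79 ± 0.32, adjusted p = 0.00044). The third went from 10.5, 1.4, 25.7 and 26 to 211, 62.3, 76.9 and 75.1. It was dimmer throughout than the MII array medians and passed the filter only through the one-cell arrays, so it had to differ and its values are a description. Kpnb1 was thus lower by its brightest probe set and higher by 2 others on the same arrays. For Tnpo1, the second brightest probe set had 912, 945, 913 and 905 on MII and 1106, 1307, 1378 and 1269 on one-cell arrays and did not pass (0.45 ± 0.26, adjusted p = 0.204). The third, of the same cross-binding type, rose from 97.2, 196, 96.4 and 177 to 1025, 362, 152 and 509 (1.55 ± 0.45, adjusted p = 0.0138), a call lost after quantile normalization (1.36 ± 0.56, adjusted p = 0.0876) and after adjustment for the hybridization controls (0.46 ± 0.30, adjusted p = 0.29). The other probe sets of Ipo5 (0.63 ± 0.30) and Ipo8 (-0.081 ± 0.30) did not pass. Averaged over their tested probe sets, Tnpo1 (-0.18 ± 0.23, adjusted p = 0.635) and Ipo5 (-0.45 ± 0.29, adjusted p = 0.289) were not called. The average of Kpnb1 was 1.15 ± 0.22. It includes the third probe set, which had to differ, so it is a description.

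The difference between probe sets was tested directly, as the change in the ratio of each further probe set to the brightest one of the same gene, in a limma fit over all 7650 such pairs on the array. It differed in 16 of the 44 pairs of these genes (36.4%, against 25.7% of all pairs), in 12 of the 27 genes with more than 1 tested probe set. In Kpnb1 the first and second further probe sets exceeded the brightest by 3.90 ± 0.42 (SE, adjusted p = 6.32e-05) and 3.42 ± 0.37 (SE, adjusted p = 6.23e-05) on the log2 scale. In Tnpo1 the differences were 2.99 ± 0.41 (SE, adjusted p = 0.000271) and 4.08 ± 0.69 (SE, adjusted p = 0.0011). They were 2.15 ± 0.40 (SE, adjusted p = 0.002) in Ipo5 and 1.18 ± 0.40 (SE, adjusted p = 0.0491) in Ipo8. In Nup214 the dimmer probe set differed from the brighter one by -3.005 ± 0.42 (SE, adjusted p = 0.000331), and in Nup98 by -2.06 ± 0.50 (SE, adjusted p = 0.00978). Kpna3, Kpna6, Tnpo2, Ipo4, Ndc1 and Nup50 each had at least 1 pair that differed too. The Ipo4 pair holds the probe set that passed the filter mainly through the one-cell arrays. Both probe sets were called in opposite directions in 4 pairs, 3 of Kpnb1 and 1 of Tnpo1 (9.09%, against 3.18% of all pairs). Without the 2 probe sets that passed only through the one-cell arrays, 15 of 42 pairs differed, in 12 genes, and 3 were called in opposite directions. Which part of each mRNA a probe set reads was not examined. Without MII array 3, 11 pairs differed.

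**Figure D3:**
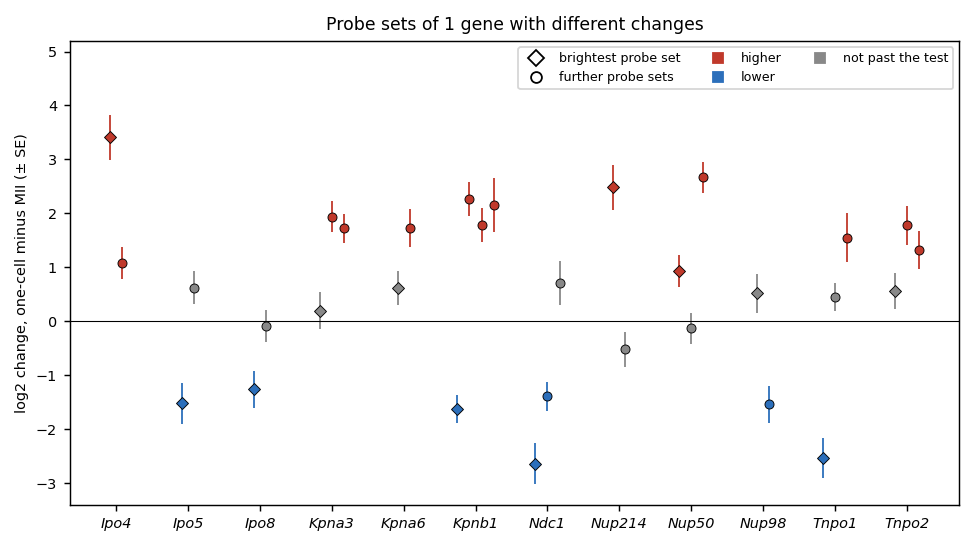
Log2 change (one-cell embryo minus MII oocyte, ± SE, 4 arrays a group) of every tested probe set of the 12 genes with at least 1 pair of probe sets whose changes differed. Diamonds are the brightest probe set of a gene and circles the others: in Kpnb1 the diamond lies at -1.63 and the 3 circles between 1.79 and 2.27, 1 of them the probe set that passed the filter only through the one-cell arrays.

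Exportins carry cargo out of the nucleus, and 1 of 6 tested genes passed. Xpo5, which exports microRNA precursors, went from 35.7, 9.9, 33.4 and 58.9 on MII arrays to 266, 125, 175 and 166 on one-cell arrays. Every one-cell array lay above every MII array (2.20 ± 0.40, adjusted p = 0.000474). The other probe set went from 5.9, 5.7, 2.5 and 3.7 to 75.2, 133, 179 and 159, but it was below the array median throughout the MII group and passed the filter only through the one-cell arrays, so its values are a description. Xpo4 had 59, 67.7, 64.2 and 65.3 on MII and 164, 79.5, 114 and 134 on one-cell arrays, with groups apart, and just missed the threshold (0.80 ± 0.32, adjusted p = 0.0637), which it passed without one-cell array 2 (log2 change 0.98, adjusted p = 0.0369). Xpo6, an exporter of actin, had 426, 499.5, 377 and 472 on MII and 235, 519.6, 412 and 404 on one-cell arrays, which overlapped (-0.22 ± 0.29). Xpo1, the main exportin for proteins with a leucine-rich signal, did not pass: its mean signal was 729 ± 154 (SD, n = 4) in the MII group and 733 ± 174 in the other, a change of -0.00069 ± 0.29. Its other probe set had 0.67 ± 0.30 and passed without one-cell array 1 (log2 change 0.91, adjusted p = 0.0103). Xpo7 did not pass with either tested probe set (-0.084 ± 0.35 and 0.55 ± 0.26), nor did Cse1l, which returns importin alpha to the cytoplasm (-0.10 ± 0.32).

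In the Ran cycle Rcc1 fell and Ranbp1 rose. Rcc1, the exchange factor that loads Ran with GTP, had 856, 881, 769 and 831 on MII arrays, a narrow range, and 33.4, 461, 399.5 and 334 on one-cell arrays. All one-cell arrays lay below the MII arrays, with array 1 far below the others (-1.86 ± 0.55, adjusted p = 0.0155). Without one-cell array 1 the change was -1.06 ± 0.24, adjusted p = 0.00307, and after adjustment for the hybridization controls it was -0.59 ± 0.44, adjusted p = 0.362. Centring ended its call as well (-2.18 ± 0.78, adjusted p = 0.0568). Ranbp1, which helps Rangap1 act on Ran, went from 168, 132, 163 and 248 to 322, 331, 281 and 359, with groups apart (0.86 ± 0.28, adjusted p = 0.0261). That call was lost without any 1 of MII arrays 1, 2 or 3 or one-cell arrays 2 or 4 (log2 changes from 0.74 to 0.85, adjusted p from 0.0561 to 0.0756), after quantile normalization (0.50 ± 0.28, adjusted p = 0.205), after centring (0.54 ± 0.35, adjusted p = 0.281) and after adjustment for the hybridization controls (0.79 ± 0.31, adjusted p = 0.0739). Ran itself had 2963, 4344, 2901 and 5545 on MII and 1097, 4537, 2369.9 and 2049.7 on one-cell arrays and did not pass (-0.77 ± 0.40, adjusted p = 0.166). It passed without one-cell array 2 (log2 change -1.11, adjusted p = 0.0363), while without one-cell array 1 it was -0.43 ± 0.32, adjusted p = 0.34. All 4 tested Ran probe sets had changes between -0.77 and -0.56, and all are of the type that can bind related transcripts, so they may read Ran-like sequences too. Rangap1 was dim and did not pass with any of its 3 probe sets (0.83 ± 0.48, -0.20 ± 0.47 and -0.34 ± 0.44).

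**Figure D4:**
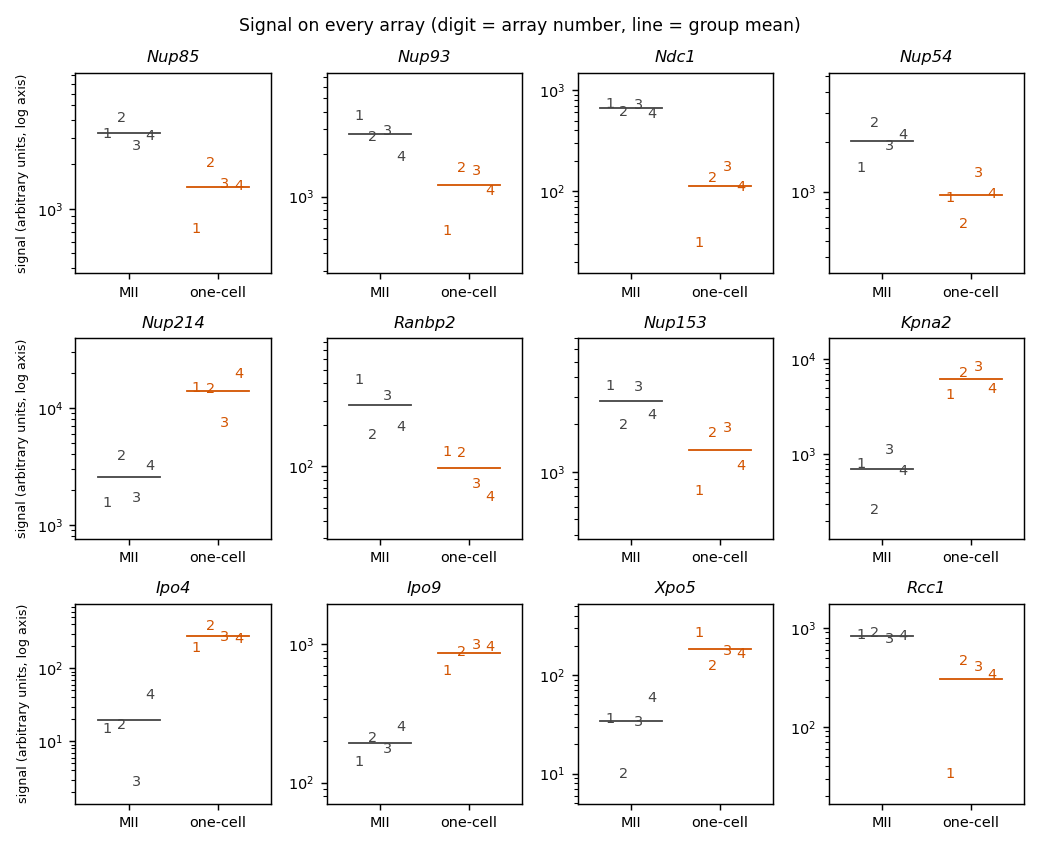
Signal on each array (log axis, arbitrary units, brightest probe set) of 12 called genes; digits are array numbers and lines group means over 4 arrays. The groups do not overlap in any of the 12, but the called genes with overlapping groups, Nup107 and Nup205, are not drawn, nor are the receptor falls. One-cell array 1 is the lowest one-cell array for Nup85, Nup93, Ndc1, Nup153, Kpna2, Ipo4, Ipo9 and Rcc1.

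Other factors of nuclear transport that do not carry these names were counted from a list drawn up from general knowledge. Of 22 tested genes 6 rose and 9 fell (5 fell after adjustment for the hybridization controls), against 20.6% higher and 14.8% lower of all genes. The list's median log2 change was -0.71, against 0.17 for all genes. The pore proteins among them included Nupl1, the partner of Nup54 and Nup62 in the channel (-1.88 ± 0.47, adjusted p = 0.00574), and the Y complex members Sec13 (-1.61 ± 0.41, adjusted p = 0.00631) and Seh1l (-1.43 ± 0.47, adjusted p = 0.0276), which fell. These 3 were picked with their values known, and 1 of the 3 further probe sets of Nupl1 and 1 of the 3 of Seh1l fell too. The smallest p belonged to Ranbp3, a cofactor of exportin 1, which rose from 122 ± 23.9 (SD, n = 4) to 955 ± 200.4 (2.86 ± 0.28, adjusted p = 1.54e-06). Its other probe set did not pass (log2 change 0.52). The mRNA export receptor Nxf1, 1 of the 6 rises, went from a dim level, 27.7 ± 24.5 (SD, n = 4), to 487 ± 246 (3.84 ± 0.44). Its fold rests on dim MII signals and is a description. The partner of Nxf1, Nxt1, fell from 2089 ± 197 (SD, n = 4) to 611 ± 139.6 (-1.78 ± 0.28, adjusted p = 0.000124). Ddx19b, a helicase that strips export factors from mRNA at the cytoplasmic face, fell (-2.01 ± 0.34, adjusted p = 0.000272), and its other probe set did not pass.

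Of 24 tested genes of the nuclear lamina and envelope, 3 rose and 9 fell, against 20.6% and 14.8% of all genes, with a median log2 change of -0.43. The lamin B receptor Lbr fell most (-5.15 ± 0.27, adjusted p = 1.48e-08). Icmt, which methylates the ends of lamins and other prenylated proteins, fell from 1639 ± 179 (SD, n = 4) to 172 ± 25.7 (-3.19 ± 0.26, adjusted p = 3.18e-07), and Tor1aip2, an activator of torsin ATPases, fell from 312 ± 39.7 (SD, n = 4) to 39.3 ± 7.07 (-2.71 ± 0.29, adjusted p = 3.72e-06). Lmna, the gene of lamins A and C and 1 of the 3 rises, went from 22.9 ± 12.5 (SD, n = 4) to 1417 ± 798 by its brightest probe set (5.37 ± 0.38). Its mean MII signal was lower than any MII array's median, so the fold rests on dim signals and is a description. Of its 3 further probe sets 1 rose. Averaged over each gene's probe sets, 3 lamina and envelope genes rose and 3 fell.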

How the data were processed

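Per the labels, polysomal RNA of 4 MII oocyte and 4 α-amanitin-treated one-cell embryo batches was amplified in 2 rounds and labelled with biotin. The authors deposited a single intensity for every probe set, on a linear scale; the array software is not given in the sources used here. Trimmed of 2% of probe sets at each end, the mean intensity was 150.0 on every array, so the deposited intensities had been scaled. The table has no detection calls.

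An offset of 10 was added before log2. Probe sets above the array's median on at least 4 arrays were fitted with limma 3.58.1 in R 4.3.3 (variance trend, two-sided, Benjamini-Hochberg over all 23336 tested, threshold 0.05); 64 controls were left out. Probe sets with 1 gene in GEO's platform annotation were named, and all 50 symbols are in the RefSeq table. A gene is represented by its tested probe set with the highest mean signal. Values on every array are given for up to 3 genes with the smallest p in each role group, and further probe sets where their call or direction differed. The members and lists were chosen with earlier results of these data known. The procedure was tested on simulated data. The number of arrays, 4 a group, limits the precision. Replicate numbers did not pair the arrays (correlations of deviations between same-numbered arrays -0.16 to 0.14). Alternatives covered normalization, offset, filter, variance model, array weights, the replicate block, arrays left out, the hybridization controls, the threshold and probe set averaging. Comparing probe sets within genes, the grouping into pore proteins and receptors, counts without probe sets under the median on every MII array, and leaving out one-cell array 1 with quantile normalization were added after seeing the data.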

Additional observations from a re-analysis of the deposited data

Results flagged for a closer look

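Among the brightest probe sets of the 48 genes, 6 of 96 groups of 4 arrays had 1 array far from the other 3 on the log2 scale (Dixon's test at 95%). Chance gives about 4.8. One-cell array 1 was the low one in 5 of the 6, with signals of 17.5 for Aaas (463.3 to 661.9 on the other one-cell arrays), 33.4 for Rcc1 (333.9 to 461.2), 843 for Nup37 (3989 to 4902), 1061 for Nup88 (3121 to 3546) and 1198 for Kpna3 (2822 to 3187). Of these genes only Rcc1 was called. MII array 1 was low for Nup155, at 99.1 against 237.7 to 275.3 on the other MII arrays. One-cell array 1 also had the brightest hybridization controls, and the part of the array in these values was not tested further.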

How the results depend on the processing

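Of 23 called genes, 7 kept their call in all 21 alternatives: Kpna2, Ipo4, Ipo9, Xpo5, Nup214, Ndc1 and Ranbp2. The Ipo4 probe set passed the filter mainly through the one-cell arrays. With 1 array left out in turn, 17 kept it in all 8 fits by the probe set that was brightest over all 8 arrays. The gene counts below instead take the brightest probe set of each fit anew. The counts with 1 array left out were 19 to 23 probe sets higher, 16 to 25 lower, 7 to 9 genes higher, 9 to 16 genes lower and 11 to 16 pairs of probe sets that differed, against 23, 22, 9, 14 and 16 with all arrays. The 9 lower genes were those without MII array 1. In that fit another probe set was the brightest for Kpnb1 and for Tnpo1, so their falls dropped out of the count. Centring moved the count of lower probe sets to 12, of higher genes to 5 and of lower genes to 9. With the hybridization controls as a covariate 8 probe sets and 5 genes were lower, and at a threshold of 0.01 they were 10 and 7. Averaging over a gene's probe sets gave 14 higher genes, and Kpnb1 turned from -1.63 to 1.15. The averages of Kpnb1 and Xpo5 include probe sets that passed the filter only through the one-cell arrays. Causes of these shifts were not tested. Exceptions are the new probe sets of Kpnb1 and Tnpo1 without MII array 1, and the stricter threshold, which calls fewer by construction. With the replicate block 23 probe sets and 9 genes were higher, 22 and 14 lower, and 13 pairs differed. In that pairing check, MII arrays 3 and 4 correlated best with the one-cell array of their own number and MII arrays 1 and 2 did not. The nucleoporin median relative to all probe sets ranged from -1.10 to -0.18, the latter without one-cell array 1 after quantile normalization, and the receptor median from 0.17 to 0.41.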
